A study of Rattus norvegicus with 6 samples.

Results

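Cholesterol synthesis and sterol handling were examined through 31 genes chosen by name: 15 of synthesis, 7 of uptake, transport and efflux, 6 regulators, and 3 of esterification and oxidation. Of these, 29 were matched through their transcript accession to 32 distinct probes, among 30367 on the array. Srebf1 and Cyp46a1 were matched to no probe and have no value here. All probes of the members were kept, and 31 probes of 28 genes were bright enough to be tested, beside 11033 genes tested in all. Soat1, whose product esterifies cholesterol, was well above background on 1 array of each group and was not tested, reading -6.40 to -5.72 among wild type rats and -6.13 to -5.70 among SPORTS rats.

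Brain RNA came from 6 male rats of Wistar background, aged 15 weeks and sedentary, each hybridised to 1 single-colour array. Of these, 3 were of the SPORTS line, a hyperactive mutant, and the other 3 were wild type. No brain region, litter or causal allele is named in the sources used here, and the rats are the replicates. Signals are given on a log2 scale with the 75th percentile of each array's spots set to 0. A difference is the SPORTS mean less the wild type mean on that scale.

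Brain cholesterol is made almost wholly within the brain, because plasma lipoproteins do not cross the blood-brain barrier. Oligodendrocytes need it for myelin, and astrocytes pass it to neurons on particles that carry apolipoprotein E. The transcription factors SREBP-1 and SREBP-2, escorted by Scap and held back by Insig proteins, raise the synthesis genes when sterols are low. Liver X receptors, the products of Nr1h2 and Nr1h3, raise efflux genes such as Abca1 and Abcg1 when oxysterols are high.

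Of the 15 synthesis genes, 12 differed by at most 0.15 in either direction between the lines. Lss and Hsd17b7, which act late in the pathway, rose by 1.27-fold and 1.21-fold, and the other 13 synthesis genes did not pass the test. These 2 of 15 genes are 13.3%, against 12.9% of all tested genes that rose, a share near the background. Both calls were lost when the position of the arrays on the slide was fitted as a block, as described below. No gene of uptake, transport and efflux passed by its brightest probe, although a second, dimmer probe of Stard4 fell. None of the 5 measured regulators passed. The largest difference among the members was that of Abca1, at -0.63 ± 0.18 (SE), which missed the threshold (limma adjusted p = 0.0638).

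**Figure D1:**
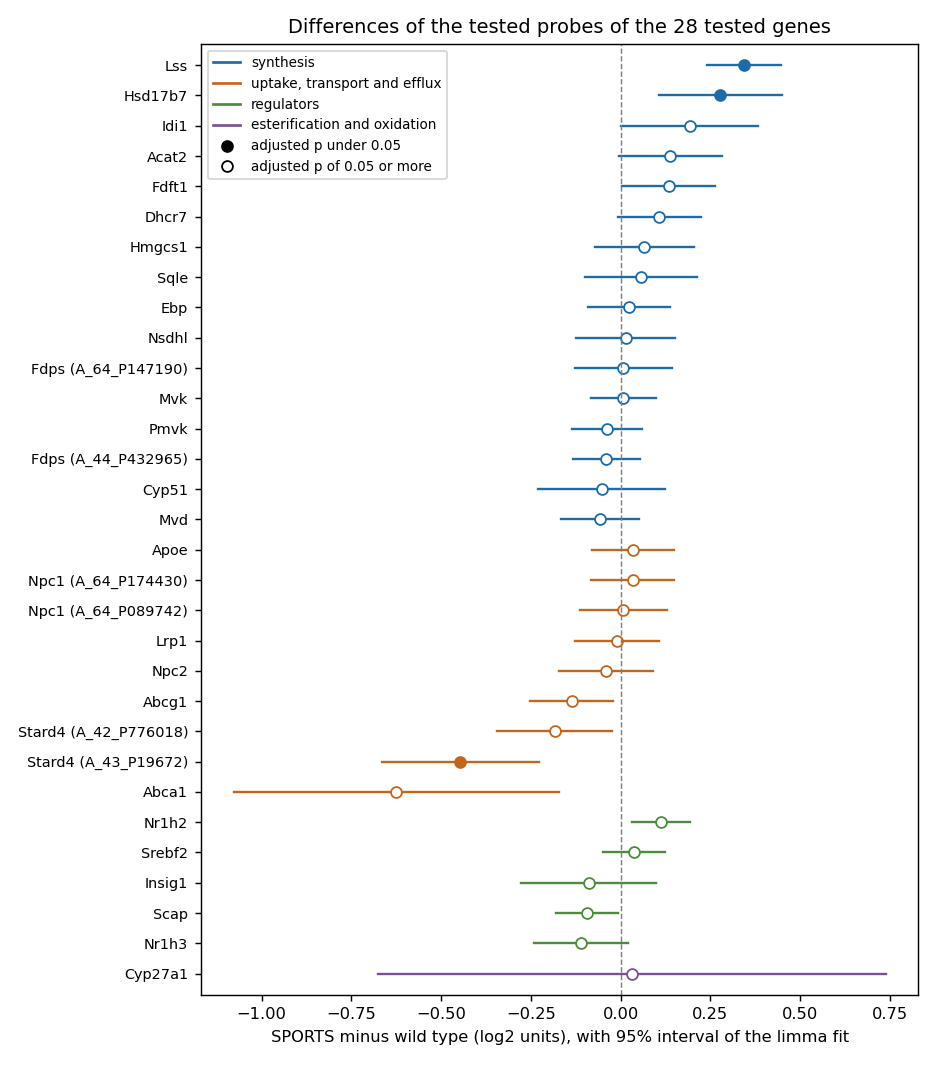
Difference between SPORTS and wild type for the 31 tested probes of the 28 tested genes, in log2 units, with the 95% interval of the limma fit; colours give the gene class and filled points passed an adjusted p of 0.05. Most points lie near 0, Lss and Hsd17b7 are filled above it, and 1 probe of Stard4 is filled below it.

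The promoters of the synthesis genes are where SREBP proteins act, usually beside the factor NF-Y, which binds the letters CCAAT. Those of Lss and Hsd17b7 are shown because these genes rose, and that of Hmgcs1, an early gene with no call, for comparison. Each runs 5′ to 3′ on the strand of the gene from 250 bases before to 50 after the start site (RefSeq, build GRCr8), with CCAAT or its reverse complement ATTGG in capitals. The Lss promoter is at chr20:12118181-12118480, minus strand, that of Hsd17b7 at chr13:84722705-84723004, minus strand and that of Hmgcs1 at chr2:53382054-53382353, plus strand.
Lss: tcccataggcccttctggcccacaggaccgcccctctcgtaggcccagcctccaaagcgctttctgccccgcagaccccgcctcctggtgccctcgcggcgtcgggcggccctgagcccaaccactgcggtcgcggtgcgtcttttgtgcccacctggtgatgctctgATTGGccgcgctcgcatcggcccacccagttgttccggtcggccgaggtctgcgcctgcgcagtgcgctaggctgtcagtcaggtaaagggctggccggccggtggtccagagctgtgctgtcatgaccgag
Hsd17b7: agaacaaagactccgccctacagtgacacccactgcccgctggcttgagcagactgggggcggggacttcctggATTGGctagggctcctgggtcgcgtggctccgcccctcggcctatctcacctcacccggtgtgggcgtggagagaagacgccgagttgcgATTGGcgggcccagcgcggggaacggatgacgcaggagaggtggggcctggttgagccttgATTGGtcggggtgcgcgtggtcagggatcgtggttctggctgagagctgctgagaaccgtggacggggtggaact
Hmgcs1: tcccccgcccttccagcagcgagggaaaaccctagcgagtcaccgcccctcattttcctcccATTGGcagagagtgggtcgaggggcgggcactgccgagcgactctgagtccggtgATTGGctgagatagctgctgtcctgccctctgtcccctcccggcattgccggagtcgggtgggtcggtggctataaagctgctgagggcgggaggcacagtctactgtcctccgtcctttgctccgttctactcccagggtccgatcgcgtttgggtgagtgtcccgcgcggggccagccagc
The Lss window holds 1 match, beginning 82 bases before the start site, that of Hsd17b7 holds 3 and that of Hmgcs1 holds 2, and all of them read CCAAT on the opposite strand. Of 12 synthesis genes with a promoter entry, 9 held CCAAT on either strand, against 37.5% of 33465 promoters of the same length. The letters TCACNCCAC, a common form of the sterol regulatory element, were in none of these 12 windows and in 1.12% of all promoters. GGGCGG, the GC box, was in 10 of the 12 against 33.1% of all. CCAAT was also in 3 of 5 uptake, transport and efflux genes and in 3 of 6 regulators, and the GC box in 5 of 5 and 4 of 6. A gene with several entries was counted if any of them held the letters. Both strands were searched for each motif, and 26 of the 31 members had an entry. A match describes letters only. Those without were Abcg1, Fdft1, Pmvk, Sqle and Stard4.

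The comparison of synthesis genes asks whether the sterol pathway of the sedentary brain differs between the lines. Of the 15 genes, 2 rose and 0 fell in limma's moderated test, which is 13.3% against 12.9% of all tested genes that rose and 11.4% that fell, a share near the background. In all, 1424 genes rose and 1257 fell, and with median normalisation 1047 rose and 1411 fell. At an unadjusted p under 0.05, 4 synthesis genes were higher against 20.6% of all genes, and 4 (Acat2, Dhcr7, Hsd17b7 and Lss) were higher without overlap of the groups against 24.8% of all. Their median difference was 0.058, against 0.007 over all tested genes, with 11 genes above 0 and 4 below. The median absolute difference was 0.058, against 0.11 over all tested genes, and 12 of the 15 lay within 0.15 of 0, a share of 80% against 60.2% of all tested genes. The median difference of 0.058 was 0.017 with median normalisation, 0.11 without SPORTS replicate 1 and 0.0041 without SPORTS replicate 3.

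Lss encodes lanosterol synthase, which folds squalene epoxide into the first sterol ring system. Its signal was -0.39, -0.36 and -0.33 in wild type and -0.08, 0.01 and 0.02 in SPORTS. These groups did not overlap, and the lowest SPORTS array lay well above the highest wild type array. The difference was 0.34 ± 0.04 (SE), with a 95% interval of 0.24 to 0.45 (limma adjusted p = 0.00417). Both spots of the probe gave the same order of groups, between -0.45 and -0.26 for wild type and between -0.11 and 0.05 for SPORTS. The row of each array on the slide was read from the position code in its slide identifier. Read so, wild type replicates 1 and 2 lay in row 1 and the other 4 arrays in row 2. With that row as a block, which leaves 1 wild type array for comparison within row 2, the difference was 0.31 (adjusted p = 0.0505), and no synthesis gene was called, where 4.03% of all genes rose and 4.31% fell, 8.34% in all.

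Hsd17b7 encodes a reductase of the sterol demethylation that follows lanosterol. Signals were -1.59, -1.62 and -1.73 in wild type and -1.49, -1.31 and -1.29 in SPORTS. The arrays separated by group, but SPORTS replicate 1 stood nearer to the highest wild type array than to the other SPORTS arrays. The difference of 0.28 ± 0.07 (SE) passed narrowly (limma adjusted p = 0.0391). With slide row as a block it did not pass (adjusted p = 0.0951). Leaving out wild type replicate 1, 2 or 3 also ended the call (adjusted p = 0.0723, 0.0865 and 0.112), as did leaving out SPORTS replicate 2 or 3 (adjusted p = 0.134 and 0.116). Quantile normalisation, median normalisation, no filter on dim probes and the 75th percentile over probes ended it as well (adjusted p = 0.0816, 0.117, 0.103 and 0.059). Among all alternatives the adjusted p lay between 0.0137 and 0.134.

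**Figure D2:**
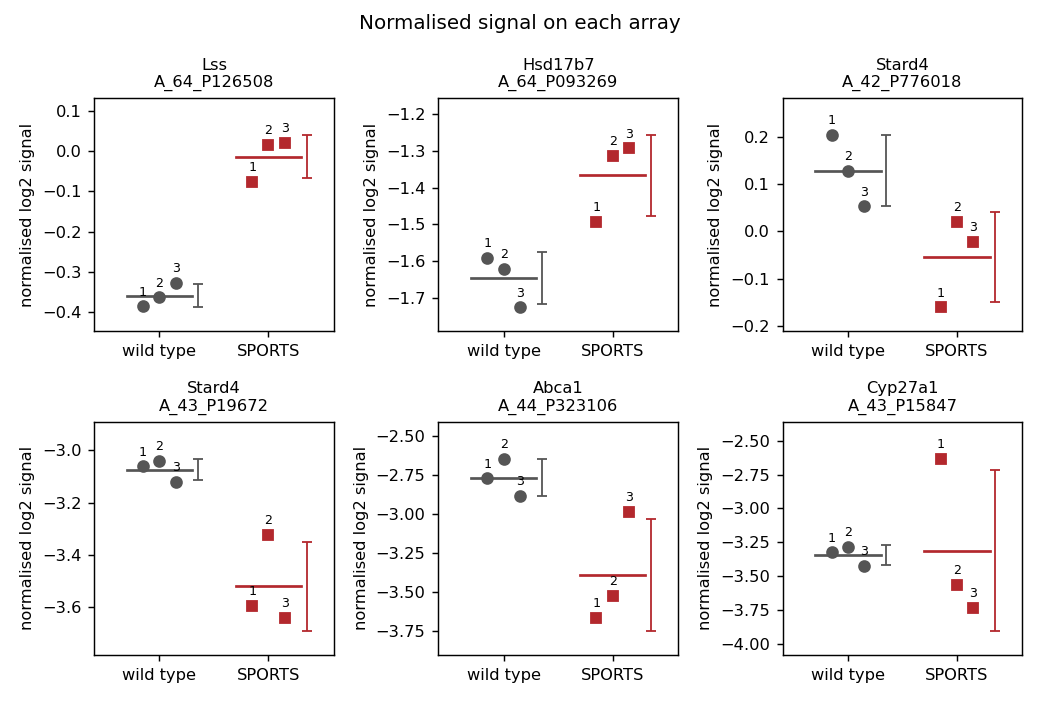
Normalised log2 signal on each array for 6 probes of Lss, Hsd17b7, Stard4, Abca1 and Cyp27a1, with wild type as circles and SPORTS as squares, numbered by replicate; horizontal lines give the group mean and the bars beside them the SD (n = 3). The groups do not overlap for Lss, Hsd17b7, each Stard4 probe and Abca1, and they overlap for Cyp27a1. For Abca1 and for Cyp27a1, 1 SPORTS array stands apart from the others.

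Before squalene, no gene passed. Hmgcs1, which encodes cytosolic HMG-CoA synthase, was at 4.36, 4.36 and 4.47 in wild type and 4.38, 4.49 and 4.52 in SPORTS. Its groups overlapped, and the difference was 0.067 ± 0.06 (SE), with a 95% interval of -0.071 to 0.20 (adjusted p = 0.457). It was 0.11 without SPORTS replicate 1, 0.10 without wild type replicate 3, 0.036 without SPORTS replicate 3, 0.026 with median normalisation and -0.004 with slide row as a block. Mvd, the decarboxylase that makes isopentenyl diphosphate, had the lowest difference of the class, at -0.057 ± 0.04 (SE; adjusted p = 0.426), reading 0.80 to 0.89 among wild type rats and 0.73 to 0.83 among SPORTS rats. It was -0.029 without SPORTS replicate 1, -0.033 without wild type replicate 1, -0.097 with median normalisation and -0.013 with slide row as a block. The kinase genes Mvk and Pmvk differed by 0.0075 and -0.038, and the probes of Fdps, which encodes farnesyl diphosphate synthase, by -0.039 for the brighter and 0.0077 for the dimmer.

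Acat2, whose product joins acetyl-CoA units at the head of the pathway, was at 1.99, 2.07 and 2.13 in wild type and 2.14, 2.18 and 2.29 in SPORTS. These groups met almost without a gap, and the difference of 0.14 did not pass (adjusted p = 0.152). The isomerase gene Idi1 differed by 0.19 (adjusted p = 0.142), and its lowest SPORTS array, replicate 1 at 0.42, lay inside the wild type range of 0.33 to 0.46. The squalene synthase gene Fdft1 differed by 0.13 (adjusted p = 0.137).

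From squalene onward, Lss and Hsd17b7 apart, the differences were small too. Sqle, the squalene epoxidase gene and a control point of the pathway, was at 2.19, 2.23 and 2.21 in wild type and 2.15, 2.28 and 2.38 in SPORTS. The SPORTS arrays lay on both sides of wild type, and the difference was 0.058 ± 0.06 (SE), with a 95% interval of -0.099 to 0.21 (adjusted p = 0.576). It was 0.12 without SPORTS replicate 1, 0.0041 without SPORTS replicate 3 and 0.017 with median normalisation. Cyp51, the lanosterol demethylase gene, was read by 10 spots per array, whose SD within an array was at most 0.06, and differed by -0.052 (adjusted p = 0.66). Nsdhl and Ebp, which act in demethylation and in moving the ring double bond, differed by 0.014 and 0.024. Dhcr7, the reductase gene that ends one branch, differed by 0.11, with groups that all but touched at -0.16 (adjusted p = 0.166). Over the 13 synthesis genes that did not pass, the 95% intervals by their brightest probe ran from -0.23 (Cyp51) to 0.38 (Idi1), and differences beyond these bounds lie outside the intervals.

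The synthesis genes also differed among the SPORTS rats, mostly in the same order. Of the 3 SPORTS arrays, replicate 1 was the lowest for 13 of 15 synthesis genes, and replicate 3 was the highest for 13 of 15. Over all tested genes, replicate 1 was the lowest for 26.2% and replicate 3 the highest for 33.9%. The median deviation of the synthesis genes from their wild type means was -0.015, 0.072 and 0.13 in SPORTS replicates 1, 2 and 3, and between -0.023 and 0.0033 in wild type. SPORTS replicate 1 is also the array with the highest Pcp2 and Car8, markers of the cerebellum. Pcp2 was at -0.51 there and between -3.75 and -3.54 on the other 5 arrays. Car8 read 0.34 there, beside -1.59 to -1.43. All 5 choroid plexus markers ran in the order of the synthesis genes, lowest in SPORTS replicate 1 and highest in replicate 3: Ttr was at 6.06, 6.98 and 7.16 and Folr1 at -2.11, -0.97 and -0.72. The 3 blood markers ran the opposite way, with Hba-a1 at 6.44, 6.25 and 5.60 by its brightest probe. The part of these markers in the order of the SPORTS arrays was not tested.

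**Figure D3:**
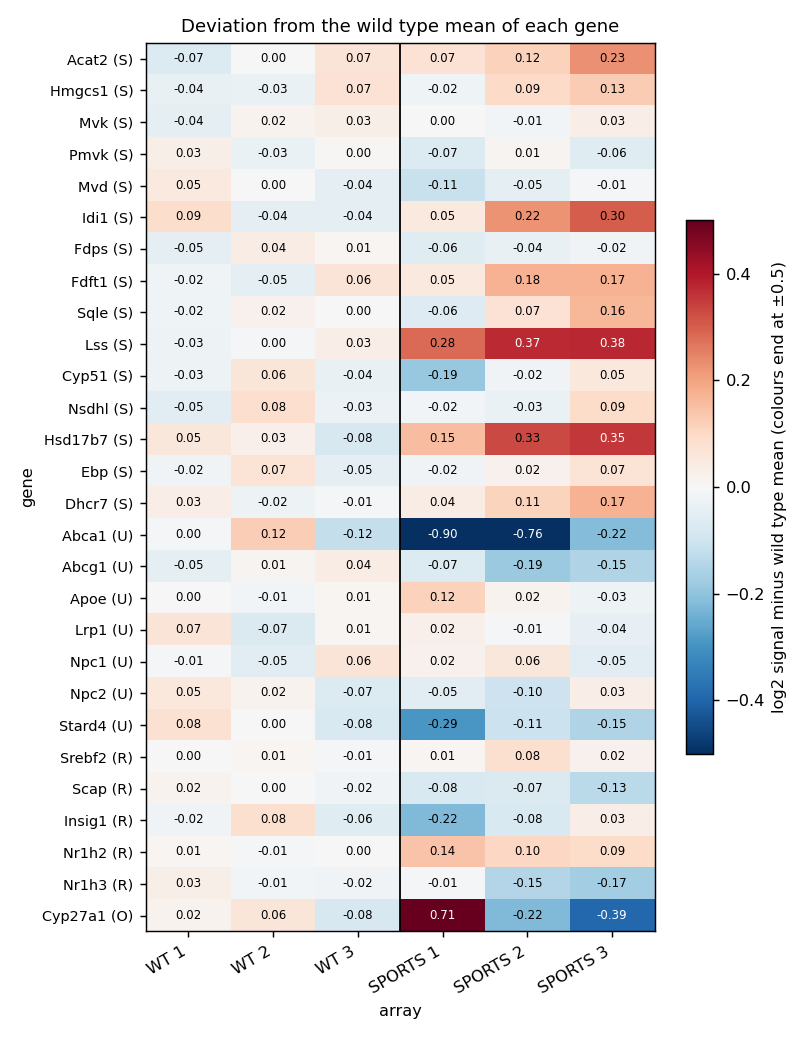
Deviation of the log2 signal from the wild type mean of each gene (rows; S synthesis, U uptake, transport and efflux, R regulators, O oxidation) on each array (columns), with 1 probe per gene and colours ending at ±0.5. For 13 of 15 synthesis genes replicate 1 is the lowest of the SPORTS columns and for 13 of 15 replicate 3 is the highest, while Lss and Hsd17b7 are red in all 3 SPORTS arrays.

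Among uptake, transport and efflux genes, Abca1, Stard4 and Abcg1 were lower without a call by their brightest probe, and the rest differed by little. Of 7 tested genes, 0 rose and 0 fell in limma's moderated test on their brightest probe, against 12.9% and 11.4% of all tested genes. At an unadjusted p under 0.05, 0 were higher and 3 were lower, against 20.6% and 18.7% of all genes. A trended and robust variance model called 3 lower, where it called 1665 of 11033 genes higher and 1512 lower. Their median difference was -0.041, beside 0.058 for synthesis and 0.007 for all tested genes, with 2 genes above 0 and 5 below. It was -0.082 with median normalisation, -0.016 without wild type replicate 1, -0.076 without wild type replicate 3, -0.017 without SPORTS replicate 2 and -0.078 without SPORTS replicate 3. The groups did not overlap for Abca1, Abcg1 and Stard4, all lower, which is 3 of 7 against 22.3% of all genes.

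Abca1, the efflux pump gene that loads cholesterol onto apolipoproteins, was at -2.77, -2.64 and -2.88 in wild type and -3.66, -3.53 and -2.98 in SPORTS. SPORTS replicate 3 lay beside wild type while the other SPORTS arrays were clearly lower. On that array the 2 spots of the probe disagreed, at -2.49 and -3.47, whereas they read -3.68 and -3.65 in SPORTS replicate 1 and -3.56 and -3.50 in replicate 2. The difference was -0.63 ± 0.18 (SE), with a 95% interval of -1.08 to -0.17 (limma adjusted p = 0.0638). Without SPORTS replicate 3 it was -0.83 and passed (adjusted p = 0.0103), and it also passed with normexp background correction, at -0.45 (adjusted p = 0.0272). It passed with the trended and robust variance model as well (adjusted p = 0.0417). The highest adjusted p of the alternatives was 0.329, with the slide row as a block, and the lowest 0.0103.

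Stard4 encodes a soluble carrier that moves cholesterol between membranes. Its brighter probe, A_42_P776018, is printed in 10 spots per array and read 0.20, 0.13 and 0.05 in wild type and -0.16, 0.02 and -0.02 in SPORTS. The groups were apart by a narrow margin, and the difference was -0.18 ± 0.07 (SE; limma adjusted p = 0.106). It passed with the trended and robust variance model (adjusted p = 0.047), and was -0.11 with slide row as a block (adjusted p = 0.515). The dimmer probe, A_43_P19672, has 1 spot and read -3.06, -3.04 and -3.12 in wild type against -3.60, -3.32 and -3.64 in SPORTS. All SPORTS arrays were lower than all wild type arrays, and this probe fell by 0.45 ± 0.09 (SE; adjusted p = 0.0203), where 10.1% of all tested probes fell. Blocking on slide row ended this call (adjusted p = 0.156), as did dropping the filter on dim probes (adjusted p = 0.062). It was lost too on leaving out wild type replicate 1, 2 or 3 (adjusted p = 0.0643, 0.0645 and 0.0567) or SPORTS replicate 1 or 3 (adjusted p = 0.0667 and 0.061). Among the alternatives the adjusted p lay between 0.00629 and 0.156 and the difference between -0.54 and -0.29. Both probes were lower in SPORTS, and they differed in size and call.

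Abcg1, a transporter gene that passes cholesterol to lipid-loaded particles, was at 2.48, 2.54 and 2.56 in wild type and 2.46, 2.34 and 2.38 in SPORTS. SPORTS replicate 1 reached almost to wild type, and the difference of -0.14 ± 0.05 (SE) did not pass (limma adjusted p = 0.0955). Apoe, the main apolipoprotein gene of the brain, was at 6.43, 6.41 and 6.43 in wild type and 6.54, 6.44 and 6.40 in SPORTS. These groups overlapped, and the difference of 0.036 ± 0.05 (SE; adjusted p = 0.641) had a 95% interval of -0.079 to 0.15; it turned to -0.0051 without SPORTS replicate 1 and to -0.0047 with median normalisation. Lrp1, a receptor gene for particles that carry apolipoprotein E, differed by -0.0095. Npc1 and Npc2, whose products release cholesterol from lysosomes, differed by 0.0078 and 0.034 for the probes of Npc1 and by -0.041 for Npc2.

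**Figure D4:**
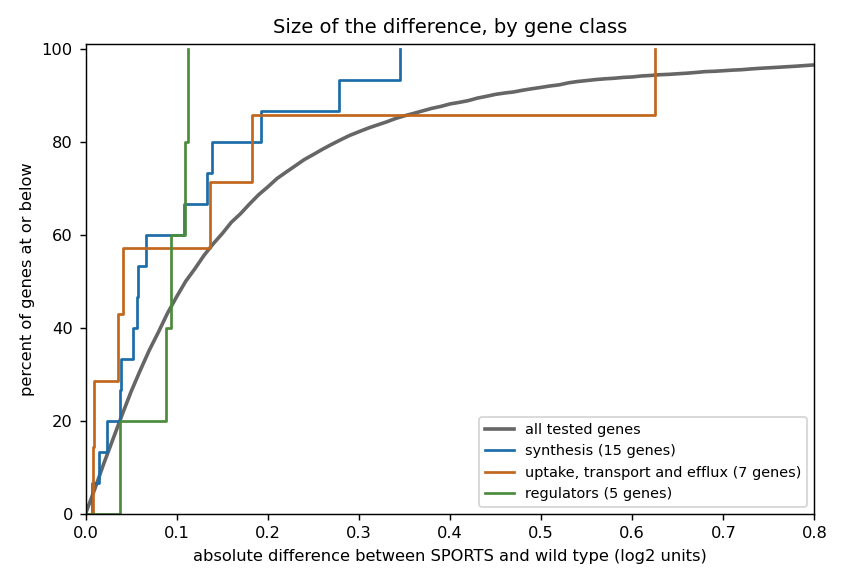
Share of genes, in percent, whose absolute difference between SPORTS and wild type is at or below the value on the x axis in log2 units, for all tested genes (grey) and for 3 gene classes. The synthesis curve lies above the grey curve over most of the range, with 80% of its 15 genes within 0.15 against 60.2% of all genes.

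Of the regulators, the 5 with a probe differed by between -0.11 (Nr1h3) and 0.11 (Nr1h2), and 0 passed in limma's moderated test, against 24.3% of all tested genes called in either direction. At an unadjusted p under 0.05, 1 was higher and 1 lower, against 20.6% and 18.7% of all genes. The trended and robust variance model called 1 higher, where it called 1665 of 11033 genes higher and 1512 lower. Srebf2, which encodes the main activator of the synthesis genes, was at 2.41, 2.42 and 2.40 in wild type and 2.42, 2.49 and 2.43 in SPORTS. The SPORTS arrays began just above the highest wild type array, and the difference was 0.037 ± 0.04 (SE; adjusted p = 0.507), with a 95% interval of -0.049 to 0.12 and values of -0.0029 with median normalisation, 0.023 with the 75th percentile over probes and 0.016 without SPORTS replicate 2. Scap, the escort gene of SREBP, differed by -0.094 (adjusted p = 0.119), and Insig1, which encodes a retention protein and is itself a target of SREBP, by -0.089 (adjusted p = 0.466).

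Nr1h2, the liver X receptor beta gene, was at 0.50, 0.48 and 0.49 in wild type and 0.63, 0.60 and 0.58 in SPORTS. Its arrays were tight within each group and did not overlap, yet the difference of 0.11 ± 0.03 (SE) missed the threshold (limma adjusted p = 0.0623). It passed under quantile normalisation (adjusted p = 0.0434), the deposited table (0.0468) and the trended and robust variance model (0.0356), and the highest adjusted p was 0.30, with median normalisation. Nr1h3, the alpha gene, was at -2.44, -2.48 and -2.49 in wild type and -2.47, -2.61 and -2.64 in SPORTS. SPORTS replicate 1 lay within the wild type range, and the difference was -0.11 ± 0.05 (SE; adjusted p = 0.209), or -0.065 with normexp background correction.

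Of sterol oxidation, Cyp27a1, which makes an oxysterol with a side-chain hydroxyl, was the single member tested. It was at -3.32, -3.28 and -3.42 in wild type and -2.63, -3.56 and -3.73 in SPORTS. SPORTS replicate 1 was the highest of all arrays and the other SPORTS arrays the lowest, and the spots of that array read -3.06 and -2.21. The difference was 0.032 ± 0.29 (SE; limma adjusted p = 0.951) and turned to -0.31 without that array (adjusted p = 0.0632). It was also below 0 without wild type replicate 3 (-0.0085), with median normalisation (-0.0082) and with quantile normalisation (-0.0048), so no direction can be given.

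Further genes of the pathway came from a list of 59 non-members, chosen with earlier results of these data known. Of 49 tested, 11 rose and 5 fell, 22.4% and 10.2%, against 12.9% and 11.4% of all tested genes. Because of that choice, these shares describe the list only. The median difference of the 49 was 0.048, and the list holds no gene of the 31. Ch25h, which makes an oxysterol and is active in macrophages and microglia, rose 1.83-fold, from -2.15, -2.64 and -2.52 to -1.59, -1.42 and -1.67 (limma adjusted p = 0.00976). Apod, a lipid carrier gene of glia and perivascular cells, rose 1.52-fold, from 2.91, 3.10 and 2.95 to 3.54, 3.62 and 3.62 (adjusted p = 0.00231). Tm7sf2, a sterol reductase gene acting just after Cyp51, rose 1.40-fold (adjusted p = 0.0136), and SPORTS replicate 1 was again the lowest SPORTS array, at -0.86 against -0.66 and -0.53. Mylip, a ubiquitin ligase gene that liver X receptors induce, rose 1.27-fold (adjusted p = 0.00486). Lcat, which encodes a plasma enzyme that esterifies cholesterol, fell 1.23-fold (adjusted p = 0.0242). In each of these genes the groups did not overlap, but they were picked as called genes with large differences. Of the 49 tested genes, 18 were higher and 10 lower without overlap, against 24.8% and 22.3% of all genes.

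With the slide row as a block, 2 of these 49 genes rose and 1 fell, against 4.03% and 4.31% of all genes, and Apod and Mylip kept their calls (adjusted p = 0.0252 and 0.0329). Ch25h, Tm7sf2 and Lcat did not pass in that fit (adjusted p = 0.0649, 0.0883 and 0.19). Tm7sf2 also lost its call without wild type replicate 3 or SPORTS replicate 2 (adjusted p = 0.0532 and 0.062), and Lcat without wild type replicate 3 or SPORTS replicate 1, 2 or 3 (adjusted p = 0.0512, 0.068, 0.095 and 0.0639). Lcat did not pass without the filter on dim probes either (adjusted p = 0.0716). Of the 49 or 50 tested, 9, 10 and 9 were called without wild type replicate 1, 2 and 3, and 9, 6 and 7 without SPORTS replicate 1, 2 and 3. Calls over all tested genes were fewer too, against 1424 higher and 1257 lower with all arrays. They were 954 and 851, 1002 and 927, and 964 and 793 without wild type replicate 1, 2 and 3. Without SPORTS replicate 1, 2 and 3 they were 889 and 874, 796 and 613, and 839 and 752.

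In RNA of whole tissue, fewer cells of a type and less RNA per cell cannot be told apart, and the counts of marker genes stand here against 12.9% of all tested genes higher and 11.4% lower. Of 10 oligodendrocyte and myelin markers 4 rose and 0 fell, with a median of 0.11, and their summed linear signal was 205 to 232 for wild type against 224 to 237 for SPORTS, where 1 is the 75th percentile. Of 6 tested astrocyte markers 2 rose and 0 fell by their brightest probe, with summed signals of 53.9 to 57.3 against 60.5 to 61.8. By that probe 4 of the 6 were above 0 and 2 below. Aqp4 had the largest difference, at 0.57, and weighs heavily in the sum. The brightest probes of Slc1a3 and Slc1a2 differed by -0.0056 and -0.12, so the sum does not show a rise of each marker. Dimmer probes of Slc1a3 and Slc1a2 were called lower, at -0.19 and -0.16 (limma adjusted p = 0.0265 and 0.0279), while every probe of Aqp4 was called higher. Of 5 fibroblast and meningeal markers, Col1a1, Col1a2 and Dcn rose and Ogn fell, while Lum, above background on 2 wild type arrays, was tested through its SPORTS arrays alone and is not counted. Their sums were 5.05 to 5.95 against 8.24 to 9.62. Of 6 microglial markers 0 rose and 1 fell (9.02 to 9.79 against 8.80 to 9.75). Each listed marker with a probe was well above background on at least 1 array. Of 6 tested neuronal markers 1 rose and 2 fell, with sums of 69.8 to 71.2 against 67.3 to 67.7. Of 5 endothelial markers 1 rose (2.57 to 2.87 against 2.92 to 3.12). No marker of choroid plexus, blood, oligodendrocyte precursors or cerebellum passed. The choroid plexus sum was 130 to 139 for wild type against 67.3 to 144 for SPORTS, with replicate 1 the lowest. The blood sum was 102 to 128 against 83.7 to 147, and the cerebellar sum 0.899 to 1.13 against 1.11 to 3.43. With slide row as a block and by brightest probe, 1 oligodendrocyte marker rose, and 1 endothelial and 1 microglial marker fell. The endothelial one, Flt1, was at -1.46 in that fit, which rests on wild type replicate 3, the only wild type array in row 2. Flt1 read -2.30 there, against -3.53 and -3.81 in the other wild type arrays and -3.84 to -3.67 in SPORTS. Its groups overlapped, and it did not pass without the block. Col1a1, Col1a2, Dcn and Ogn passed with the block, and no astrocyte or neuronal marker did by its brightest probe. The dimmer probes of Aqp4 did pass there, with differences of 0.41 and 0.53, while its brightest probe, at 0.45, did not. The part of these lists in the calls of Lss, Hsd17b7, Ch25h and Apod was not tested.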

How the data were processed

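Agilent single-colour arrays of 3 wild type and 3 SPORTS brains were analysed, all on 1 slide. Per the file headers, Feature Extraction (Agilent, version 10.10.1.1) gave the processed intensity values, with background subtraction and detrending inside an array and no step between arrays. In the table of all samples, the deposited intensity values equal these times 1 factor per array (1.38 to 1.47), and 0 columns belong to other samples.

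The log2 processed signal minus the 75th percentile of the non-control spots (1530 to 1628 before log2) was averaged over the spots of a probe, without 3075 outlier-flagged spot values. Testing required a probe's share of spots well above background to exceed 0.5 on every array of 1 group or both. This kept 20658 probes, and 11033 genes named through RefSeq accessions, each read by its brightest probe. The 6 arrays, with 20323 to 23261 probes above background, limit the precision. Groups were compared with limma 3.58.1 in R 4.3.3 (two-sided, Benjamini-Hochberg over all tested probes, threshold 0.05), checked on simulated data. P-values set each group difference against the spread within groups, moderated over all tested probes. With 1 array per rat, spread between rats and between arrays cannot be told apart. No spot was saturated.

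Members and lists were chosen with earlier results of these data known. Members that were called, or whose probes disagreed, are given in full, with the extremes of each class, Srebf2, Hmgcs1, Sqle and Apoe; values of the other members were added after they were seen. The rule picked the 6 called genes of the further list with the largest differences; 5 are named, and 1 of the 6 is not reported here. Alternatives were quantile and median normalisation, normexp (offset 50; on median spot brightness), the deposited table, 2 other filters, outlier spots kept, a trended and robust variance model, the mean of a gene's probes, the slide row as a block and leaving out each array. The 75th percentile over probes was added after seeing the data.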

Additional observations from a re-analysis of the deposited data

How the results depend on the processing

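The 2 synthesis calls became 1 with quantile normalisation, median normalisation, no filter on dim probes and the 75th percentile over probes. They became 0 with the slide row as a block, and 1 to 2 when 1 array was left out. Over all tested genes, 1424 rose and 1257 fell in the main fit, and 445 and 475 with the block. Quantile normalisation gave 1417 and 1354, median normalisation 1047 and 1411, and the 75th percentile over probes 1328 and 1459. For uptake, transport and efflux the count of 0 became 1 with median normalisation and with normexp, 3 with the trended and robust variance model, and 0 to 1 when 1 array was left out. For regulators it became 1 with quantile normalisation, the deposited table and the trended and robust variance model. Of the further pathway genes 7 were called without the filter and 6 to 10 without 1 array. Calls over all genes were fewer too in these settings, at 767 higher and 676 lower without the filter. The median of the synthesis genes ran from 0.0041 to 0.11 without 1 array. The median of uptake, transport and efflux was -0.082 with median normalisation and -0.078 to -0.016 without 1 array. Signs turned, with no call on either side, for Apoe (-0.0047 with median normalisation, -0.0051 to 0.067 without 1 array), Srebf2 (-0.0029 with median normalisation), Hmgcs1 (-0.004 with the block) and Cyp27a1 (-0.0048 with quantile normalisation, -0.0082 with median normalisation, -0.31 to 0.24 without 1 array, the lowest without SPORTS replicate 1). The cause of these changes was not tested. Of all calls, 53.1% were higher in SPORTS, against 42.6% with median normalisation, which moved the median of all genes to -0.033. No paired analysis was possible because the labels give the groups fewer than 2 shared numbers. Signal over background left Soat1 untested.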
